A study of Musca domestica with 8 samples.

Results

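Contigs of the housefly (*Musca domestica*) transcriptome that the deposited annotation names as iron storage or antioxidant proteins were followed over 8 samples. A contig was taken when its annotation named ferritin, transferrin, superoxide dismutase, catalase, peroxiredoxin, thioredoxin or metallothionein and gave an insect in brackets as the species of the protein match. This held for 48 of the 35834 contigs, in 7 families and with 18 distinct protein matches. The names matched 51 contigs, and 3 of them were left out because no insect stands in brackets.

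All 8 samples, No.1 to No.8, carry the label of the strain 791spin, a housefly strain selected with the insecticide spinosad from the multi-resistant Danish strain 791a. Each is described as RNA from whole bodies of about 60 pooled adult males and females, 5 to 7 days old and fed on sugar, and the labels describe sequencing of a normalized cDNA library, in which abundant transcripts are lowered on purpose. The methods describe a single such library, with fewer reads than the counts of any 1 sample here. The counted reads thus cannot all be those of that run, and which library they came from cannot be told. The paper also says that its transcriptome was used for annotating transcripts in a study of adaptation to laboratory breeding. The labels name no second condition, dose or strain, so no groups were compared. Nothing in the labels says which samples came from separate cultures, so SDs and p-values measure only the spread between these samples. How much of this spread is technical was not tested.

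Iron is needed in many enzymes but, when free, helps to turn hydrogen peroxide into damaging radicals. Insects store iron in ferritin, a shell of heavy and light chains that in flies is largely secreted, and carry it in the blood with transferrin, which is also known as an immune protein. Superoxide dismutase turns superoxide into hydrogen peroxide, catalase and the peroxiredoxins remove the peroxide, thioredoxin gives the peroxiredoxins their electrons back, and metallothioneins are small cysteine-rich proteins that bind copper, zinc and cadmium.

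The sample totals ran from 10266664 to 16115208 counts, and values are given as counts per 1000000 of such a total (CPM). Lists of 8 values follow the order No.1 to No.8. A total of 3 counts corresponded to 0.186 to 0.292 CPM. The samples differed in ways the labels do not name. The 27 contigs annotated as yolk protein, made in the fat body and ovary of females, together had 19.9, 205, 7.19, 2810.0, 126, 1827, 29.4 and 3934 CPM in No.1 to No.8. No.2, No.4, No.6 and No.8 all lay above No.1, No.3, No.5 and No.7, although every sample is labelled as males and females pooled, and the labels do not give the share of females in a sample. Chorion and vitelline proteins (7 contigs) had from no counts in No.7 to 397 CPM in No.8. Markers of eye (opsin or rhodopsin, 10 contigs, 353 to 1949 CPM), muscle (troponin or flight muscle, 9 contigs, 190 to 1547 CPM) and gut (trypsin, 20 contigs, 1451 to 4991 CPM) were counted in every sample, and no contig was annotated as tektin or axonemal dynein. Fewer cells of a type and less RNA per cell cannot be told apart in such pools. None of these markers enters the sums of the members. No.1 and No.2 stood apart from the other samples in several member contigs. How often these or other samples stand apart over all contigs was not counted, so this is not shown to be particular to the members. Where a contig is described as lowest in both No.1 and No.2, its ratio is given with and without them.

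All 48 contigs had at least 1 count. Their joint share of a sample's total was 0.178% ± 0.0278 (SD, n = 8), with 0.140% in No.2 as the lowest and 0.216% in No.3 as the highest share. Metallothionein took 30.0% of these counts and the thioredoxin family 29.9%, followed by ferritin with 17.6%, superoxide dismutase with 11.1%, peroxiredoxin with 5.83%, transferrin with 5.36% and catalase with 0.281%. The families follow the annotated names, so thioredoxin peroxidase 1, an enzyme of the peroxiredoxin family, is counted with thioredoxin. A mean count of at least 5 was reached by 41 of the 48 contigs. The chi-square test of homogeneity over the 8 samples called all 41 as varying by more than counting error (adjusted p below 0.05 over 23597 contigs), and the same test called 95.1% of all contigs, so this count does not set the members apart. The edgeR dispersion, a measure of the spread between samples beyond counting error, had a median of 0.283 over these 41 contigs and 0.303 over all contigs. It lay above the median of all contigs for 17 of the 41 members, where 50% of all contigs lie there. The members were more deeply counted, with a median of 939.5 counts in all over the 48 contigs against 129 over the 35834. The dispersions were thus not compared at like counts. None of the 8 tested contigs grouped by name as thioredoxin was above the median dispersion of all contigs, against 5 of 12 for ferritin and 5 of 10 for metallothionein. It was 2 of 4 for superoxide dismutase, 2 of 4 for catalase, 2 of 2 for transferrin and 1 of 1 for peroxiredoxin.

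**Figure D1:**
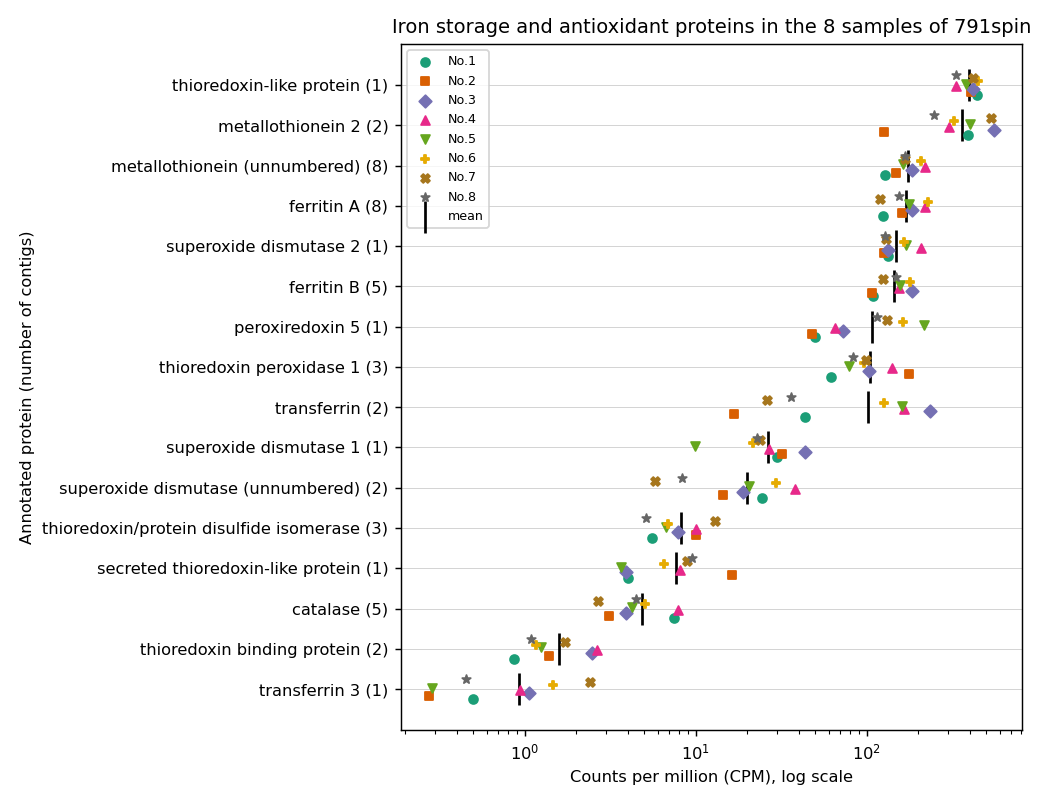
Summed CPM (horizontal axis, log scale) of each annotated protein with at least 50 counts, 1 point per sample and a bar for the mean of the 8 samples. The thioredoxin-like protein keeps its points between 332 and 447 CPM, while those of transferrin spread from 16.8 to 236 CPM.

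Ferritin was spread over 13 contigs. All are annotated as putative ferritin heavy chain-like protein of the blowfly *Lucilia sericata*, but with 2 distinct protein entries, called ferritin A (8 contigs, entry ADI87389.1) and ferritin B (5 contigs, entry ADI87390.1) here. No contig was named as a light chain, so heavy and light chains could not be compared. Ferritin A had 124, 161, 184, 221, 176, 228, 119.7 and 154 CPM in No.1 to No.8, a mean of 171 ± 39.9 CPM (SD, n = 8). Ferritin B had 109.5, 108, 184, 154, 157, 180, 124 and 148 CPM in No.1 to No.8, a mean of 145 ± 29.4 CPM. Both sums thus stayed within a factor of 1.90 and 1.71 between the lowest and the highest sample. The ratio of B to A lay between 0.668 in No.2 and 1.04 in No.7, with a median of 0.886. These sums are not divided by length. Per summed length the direction turned, with 38.0 ± 7.67 counts per kilobase on the CPM scale for B and 26.7 ± 6.23 for A (SD, n = 8), since the contigs of A add up to 6398 bp and those of B to 3826 bp. On the most counted contig of each, A was instead the higher per length, with 95.6 against 29.7 for B. Which of them is higher per length thus depends on the contigs taken.

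The single contigs of ferritin moved more than the sums. M_dom_rep_c16040 (634 bp, ferritin B) had 4.47, 3.04, 67.2, 30.3, 12.0, 12.9, 32.5 and 37.0 CPM in No.1 to No.8. M_dom_rep_c15433 (449 bp, ferritin B) had 3.85 and 3.11 CPM in No.1 and No.2 and 15.9 to 44.4 CPM elsewhere. No.1 and No.2 were the lowest for both contigs and did not overlap with the other samples. The highest sample was 22.1 times the lowest for M_dom_rep_c16040 and 14.3 times for M_dom_rep_c15433, and without No.1 and No.2 these ratios were 5.59 and 2.79. Another contig of the same match was highest in No.1. M_dom_rep_c14637 (838 bp) had 55.8, 34.3, 41.8, 16.3, 48.1, 35.4, 30.8 and 27.9 CPM in No.1 to No.8, so that No.2 lay within the range of the other samples. It held 51.0% of the ferritin B counts in No.1 (95% Wilson interval 48.7% to 53.3%) and 10.6% in No.4 (9.19% to 12.2%), whereas M_dom_rep_c15433 held 3.51% in No.1 (2.75% to 4.48%) and 20.1% in No.4 (18.3% to 22.2%). These intervals cover counting error only.

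In ferritin A the contig with the highest mean, M_dom_rep_c16737 (558 bp), had 26.1, 14.8, 64.0, 83.8, 54.5, 78.4, 48.6 and 56.5 CPM in No.1 to No.8. No.1 and No.2 were again the lowest, and without them its ratio of highest to lowest sample was 1.73 instead of 5.67. M_dom_rep_c14626 (1377 bp) was instead highest there, with 47.8 and 77.9 CPM in No.1 and No.2 and 11.4 to 38.2 CPM elsewhere. It held 48.4% of the ferritin A counts in No.2 (95% Wilson interval 46.3% to 50.4%) and 8.19% in No.8 (6.97% to 9.59%). The remaining 6 contigs of ferritin A include M_dom_rep_c14453, which had 11.5 to 46.7 CPM and was also lowest in No.1 and No.2 (ratio 4.07, or 1.74 without them), M_dom_rep_c11768 with 16.6 to 39.7 CPM, M_dom_rep_c17224 with 11.3 to 24.5 CPM, and contigs with at most 93 counts in all. The other contigs of ferritin B, M_dom_rep_c5594 with 27.1 to 54.7 CPM and M_dom_rep_c13730 with 15.4 to 32.4 CPM, had ratios of highest to lowest sample of 2.02 and 2.10.

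**Figure D2:**
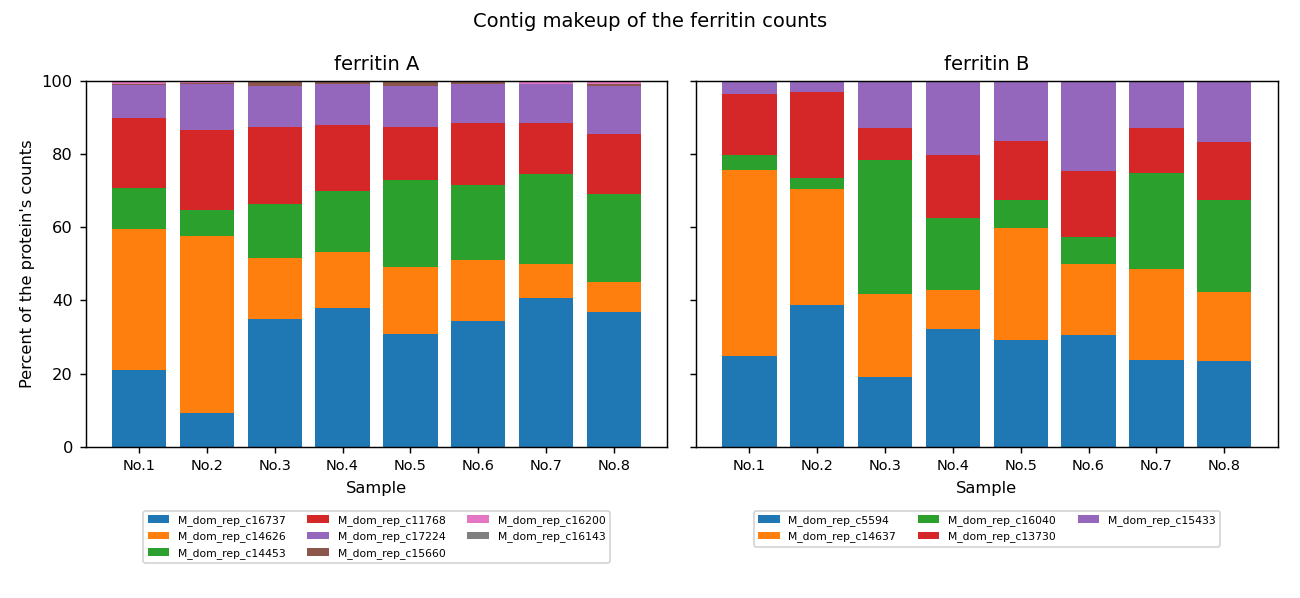
Percent of the counts of ferritin A (left) and ferritin B (right) on each contig (colours) in each sample. M_dom_rep_c14626 takes 38.5% and 48.4% of ferritin A in No.1 and No.2 and at most 18.1% elsewhere, and M_dom_rep_c16040 and M_dom_rep_c15433 are thin slices of ferritin B in No.1 and No.2.

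Transferrin was the family with the widest range of its sum. The contigs matched to the transferrin of *M. domestica* had 43.4, 16.8, 236, 166, 160, 126, 26.0 and 35.9 CPM in No.1 to No.8, a mean of 101 ± 81.8 CPM (SD, n = 8). No.3 to No.6 had at least 126 CPM and the other samples at most 43.4 CPM, with no overlap. Nearly all of it, 99.7% of the counts, fell on M_dom_rep_c6472 (1943 bp), whose highest sample was 14.0 times its lowest, or 9.05 times without No.1 and No.2. Its dispersion of 0.604 was at percentile 85.2 of all contigs. M_dom_rep_c16204, matched to transferrin 3 of *Drosophila melanogaster*, was counted at 0.276 to 2.41 CPM, with 84 counts in all.

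The rule left out 2 further transferrin contigs, because their annotation is a Swiss-Prot entry (TRF_SARPE) with no species in brackets. They are given here because they held more counts than the members. Together they had 132, 54.8, 960, 341, 492, 321, 37.4 and 62.5 CPM in No.1 to No.8. No.3 to No.6 were the highest here as well, and in each sample these contigs had 1.44 to 4.06 times the CPM of the *M. domestica* match. Whether the contigs are parts of 1 transcript was not tested, since the contig sequences were not used here.

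Superoxide dismutase was annotated with 3 entries of *M. domestica*, which the annotation does not assign to the copper/zinc or the manganese form. In *Drosophila*, Sod1 is the copper/zinc enzyme of the cytosol and Sod2 the manganese enzyme of mitochondria. Superoxide dismutase 2 (M_dom_rep_c5897, 903 bp) had 133, 126, 134, 208, 171, 165, 130 and 127 CPM in No.1 to No.8. It was among the 3 steadiest of the 29 members whose mean count reached 50, with a ratio of highest to lowest sample of 1.65 and a mean of 149 ± 29.3 CPM (SD, n = 8). Superoxide dismutase 1 (M_dom_c533, 914 bp) had 29.9, 32.1, 43.6, 26.9, 9.90, 21.5, 23.8 and 22.7 CPM in No.1 to No.8. No.5 was the lowest and No.3 the highest sample of this contig, 4.40-fold apart.

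The unnumbered superoxide dismutase, on 2 contigs, had 24.4, 14.5, 19.0, 38.2, 20.5, 29.4, 5.77 and 8.29 CPM in No.1 to No.8. No.7 and No.8 were the lowest, and the highest sample was 6.63 times the lowest. For M_dom_rep_c19974 (1120 bp), 1 of its contigs, the values ran from 1.81 CPM in No.7 to 22.2 CPM in No.4.

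Catalase was low. Its 5 contigs, all matched to 1 putative catalase of the tsetse fly *Glossina morsitans morsitans*, together had 7.45, 3.11, 3.93, 7.93, 4.23, 5.06, 2.67 and 4.47 CPM in No.1 to No.8, from 466 counts in all. The range of 2.97-fold had No.4 and No.1 at the top and No.7 and No.2 at the bottom. The contig with the most counts, M_dom_rep_c24747 (672 bp), had 181 counts, from 3.79 CPM (No.1) down to 0.775 CPM (No.7). M_dom_rep_c17681 had 7 counts and was not tested.

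Peroxiredoxin 5, a peroxidase that in *Drosophila* and mammals is found in mitochondria among other places, fell on 1 contig, M_dom_rep_c6459 (752 bp). It had 49.6, 47.7, 73.0, 65.1, 217, 163, 132 and 115 CPM in No.1 to No.8, a mean of 108 ± 60.5 CPM (SD, n = 8). No.5 to No.8 were all above No.1 to No.4, and the highest sample was 4.54 times the lowest, or 3.33 times without No.1 and No.2. The muscle list was highest in the same samples No.5 (1547 CPM) and No.6 (1294 CPM) and lowest in No.2 (190 CPM), but No.7 (721 CPM) and No.8 (699 CPM) lay close to No.4 (668 CPM). All 9 contigs of that list were tested. Its part in the peroxiredoxin values was not tested. The only other contig named peroxiredoxin, matched to the beetle *Tribolium castaneum*, had 8 counts in all. Thioredoxin peroxidase 1, of the same enzyme family but grouped by its name with thioredoxin, had 9994 counts against 9672 for peroxiredoxin 5.

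**Figure D3:**
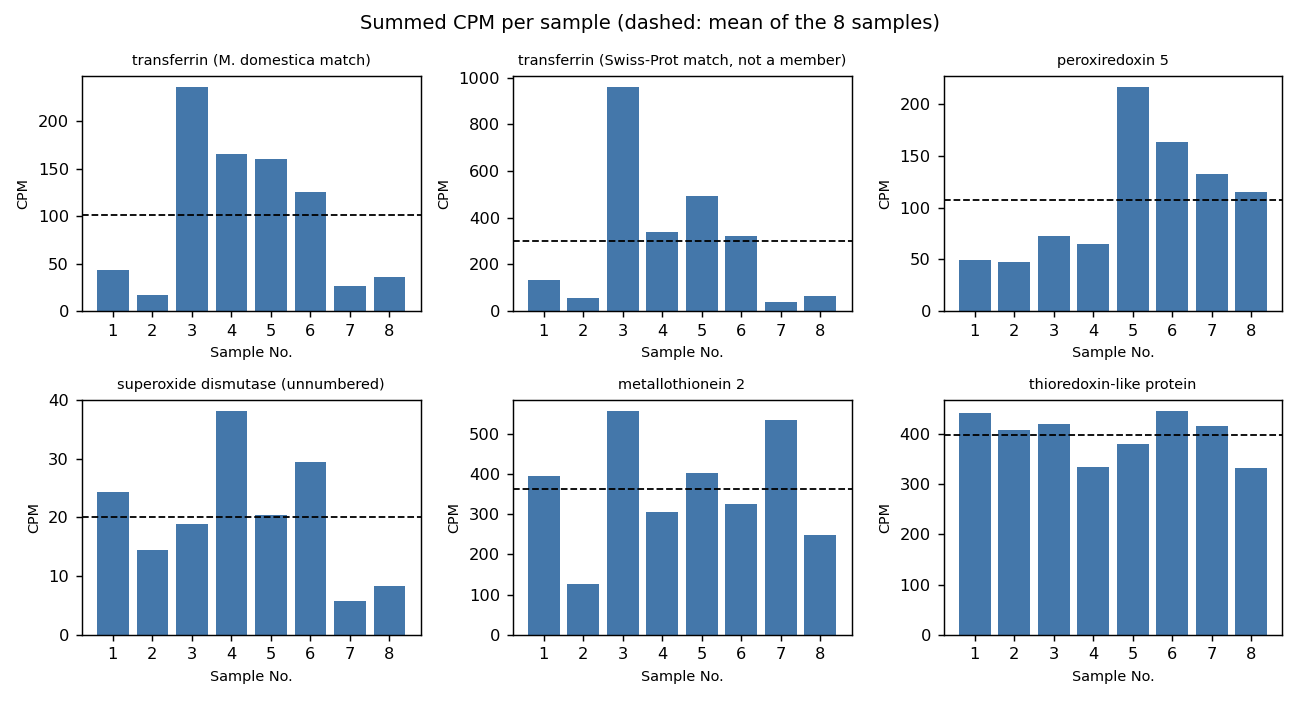
Summed CPM (vertical axis, from 0) in the 8 samples for 5 annotated proteins and for the transferrin contigs with a Swiss-Prot match, which are not members; dashed lines are means. Transferrin is high in No.3 to No.6 in both panels, peroxiredoxin 5 in No.5 to No.8, and the thioredoxin-like protein differs little.

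The thioredoxin family held the member with the smallest ratio of highest to lowest sample. The thioredoxin-like protein (M_dom_rep_c7178, 614 bp, matched to *G. m. morsitans*) had 442, 408, 419, 334, 381, 447, 417 and 332 CPM in No.1 to No.8, a mean of 398 ± 44.5 CPM (SD, n = 8). The highest sample was 1.34 times the lowest, and the dispersion was at percentile 4.28 of all contigs. With 37997 counts in all, even this contig varied by more than counting error (chi-square test with Benjamini-Hochberg adjustment, adjusted p = 1.2e-80), so the test does not show steady and unsteady members apart.

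Thioredoxin peroxidase 1, an enzyme of the peroxiredoxin family that draws its electrons from thioredoxin, had 61.7, 176, 103, 140, 79.1, 96.6, 99.4 and 83.0 CPM in No.1 to No.8 over 3 contigs. No.2 was the highest and No.1 the lowest sample, 2.86-fold apart. One of the contigs, M_dom_rep_c6157 (1273 bp), had 96.9 CPM in No.2 and 27.2 to 46.2 CPM in the other samples. The secreted thioredoxin-like protein (M_dom_c4967, 1141 bp) was also highest in No.2, with 4.03, 16.4, 3.93, 8.12, 3.65, 6.53, 8.95 and 9.48 CPM in No.1 to No.8.

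The thioredoxin/protein disulfide isomerase match, a name for enzymes that form and reshuffle disulfide bonds in secreted proteins, had 5.52, 10.1, 7.86, 10.1, 6.73, 6.92, 13.0 and 5.10 CPM in No.1 to No.8 over 3 contigs. The thioredoxin binding protein (tBP-2/VDUP1), known in mammals as an inhibitor of thioredoxin, had 0.869 to 2.64 CPM over 2 contigs and was highest in No.4 and No.3. A contig matched to thioredoxin domain-containing protein 11 of the wasp *Nasonia vitripennis* had 8 counts in all. No member was named thioredoxin reductase.

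Metallothionein 2 of *M. domestica* took the most counts after the thioredoxin-like protein, 33675 against 37997. It had 394, 126, 557, 305, 402, 324, 534 and 249 CPM in No.1 to No.8, a mean of 362 ± 143 CPM (SD, n = 8). On the sample totals, No.2 and No.8 were the lowest and No.3 and No.7 the highest samples. No.1, No.3, No.5 and No.7 had at least 394 CPM and the other samples at most 324 CPM. The yolk protein list divided the same samples in the opposite direction, with at most 126 CPM in No.1, No.3, No.5 and No.7 and at least 205 CPM in the others, and of its 27 contigs 21 were tested. M_dom_rep_c10784 (325 bp) held 99.3% of its counts, and the highest sample of this contig was 4.39 times the lowest, or 2.23 times without No.1 and No.2. The eye list, too, was highest in No.3 (1949 CPM) and No.7 (1389 CPM), but it was lowest in No.6 (353 CPM). Of its 10 contigs 9 were tested, and the part of the yolk and eye lists in the metallothionein values was not tested. The smaller contig of this match, M_dom_c3296 (399 bp), ran from 0.621 CPM (No.2) to 6.42 CPM (No.3).

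The unnumbered metallothionein match of *M. domestica* joined a steady sum to contigs that were not steady. Its 8 contigs, 285 to 663 bp long, together had 129, 148, 184, 219, 163, 208, 167 and 169 CPM in No.1 to No.8, a mean of 173 ± 29.9 CPM (SD, n = 8) and a range of 1.70-fold. M_dom_rep_c31309 (292 bp) had 1.37, 3.25, 52.0, 51.6, 87.5, 104, 54.6 and 63.7 CPM in No.1 to No.8. Its ratio of 75.9 between the highest and the lowest sample was the largest among the 29 members whose mean count reached 50, and it was 2.01 without No.1 and No.2. M_dom_rep_c20444 (357 bp) was highest where that contig was lowest, with 61.1 and 85.0 CPM in No.1 and No.2 and 23.7 to 56.1 CPM elsewhere.

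As a share of the counts of this match, M_dom_rep_c31309 held 1.06% in No.1 (95% Wilson interval 0.702% to 1.60%) and 53.5% in No.5 (51.2% to 55.9%), and M_dom_rep_c20444 held 57.6% in No.2 (55.5% to 59.7%) and 14.5% in No.5 (12.9% to 16.3%). A second contig nearly missing from No.1 and No.2 was M_dom_c35112 (345 bp), with 0.621 CPM in each of them and 5.37 to 11.1 CPM in the others. Its ratio of 17.9 was 2.07 without No.1 and No.2. M_dom_c35045 (285 bp), chosen after its values were seen, had 0.310, 0.138, 7.76, 7.93, 2.79, 4.19, 1.55 and 1.46 CPM in No.1 to No.8. The value of No.2 rests on 2 counts and that of No.1 on 5, and its ratio of highest to lowest sample was 57.4, or 5.44 without them. M_dom_c2173 (400 bp), with 8.75 to 16.5 CPM and a ratio of 1.88, was by this ratio among the 3 steadiest members with a mean count of at least 50. Its dispersion was at percentile 0.559 of all contigs, below that of the thioredoxin-like protein.

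**Figure D4:**
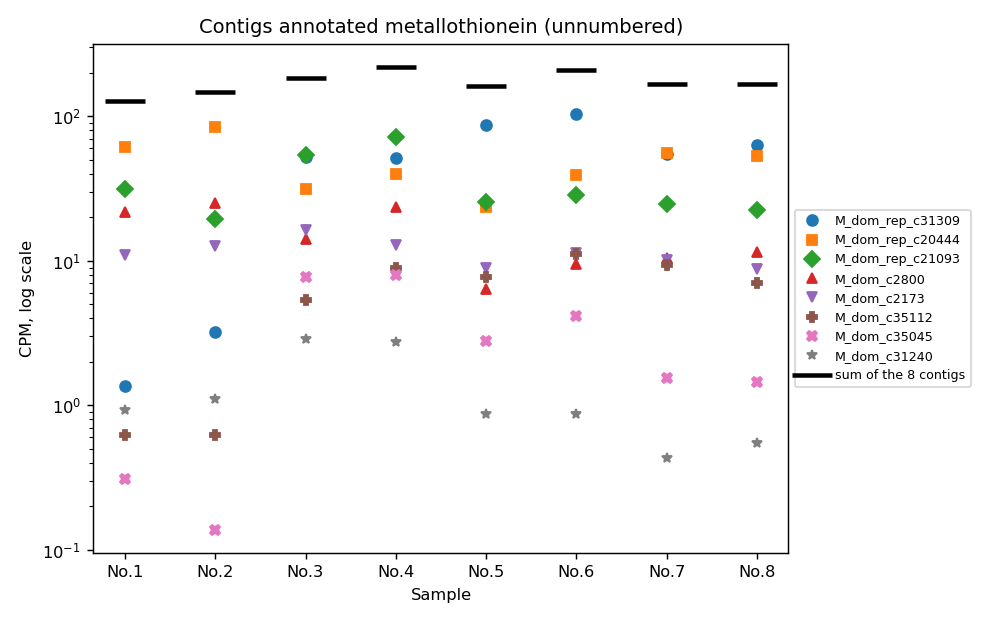
CPM (log scale) of the 8 contigs annotated as unnumbered metallothionein and of their sum (black bars) in each sample. The sum lies between 129 and 219 CPM, while M_dom_rep_c31309 has 1.37 CPM in No.1 and 104 CPM in No.6.

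Whether a steady sum over unsteady contigs is common in this table was looked at over all 982 protein entries with at least 3 tested contigs. For each entry the coefficient of variation (CV, the SD divided by the mean over the 8 samples) of the summed CPM was divided by the median CV of its contigs. The median of this quotient over all entries was 0.801. It was 0.301 for the unnumbered metallothionein, where the sum had a CV of 0.173 and the median contig one of 0.573, and this was at percentile 0.611 of all entries. Ferritin A had 0.525 (percentile 10.1) and ferritin B 0.597 (percentile 16.7), while catalase with 0.770 and thioredoxin peroxidase 1 with 0.763 were near the median.

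A sum over more contigs tends to be steadier. Among the 263 entries with at least 5 tested contigs the median quotient was 0.721, and the metallothionein was at percentile 1.52, ferritin A at 18.6 and ferritin B at 26.2. Without No.1 and No.2 the quotient was 0.321 for the metallothionein and 0.418 for ferritin B, but 0.734 for ferritin A, where the median over all entries was 0.787. The sources used here do not say how a read that fits several contigs was counted, and contigs with 1 protein match can be alleles, gene copies, splice forms or fragments, so a single contig of these groups is less certain than their sum.

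**Figure D5:**
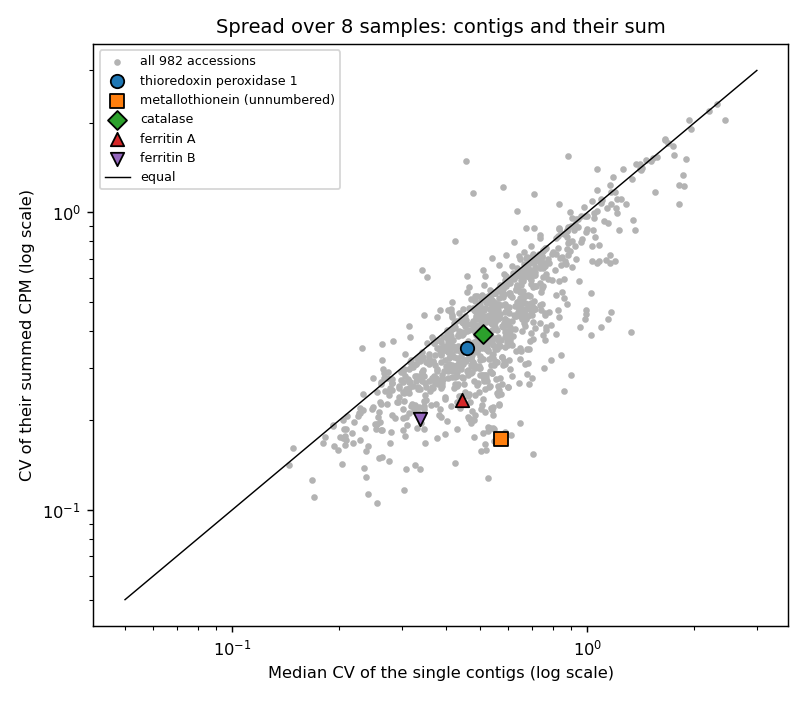
CV over the 8 samples of the summed CPM of a protein entry (vertical axis) against the median CV of its contigs (horizontal axis), both on log scales, for 982 entries (grey) and the 5 entries among the members with at least 3 tested contigs. The unnumbered metallothionein lies far below the line of equal spread, at 0.573 and 0.173.

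To order the levels of different proteins, CPM were divided by the summed contig length, as counts per kilobase of contig on the CPM scale (RPKM). If the counted reads came from a normalized library, this order need not be that of the RNA in the fly. The highest was the thioredoxin-like protein with 648 ± 72.5 RPKM (SD, n = 8), then metallothionein 2 with 499 ± 198 RPKM, superoxide dismutase 2 with 165 ± 32.5 RPKM, peroxiredoxin 5 with 143 ± 80.5 RPKM and the unnumbered metallothionein with 55.7 ± 9.62 RPKM. Thioredoxin peroxidase 1 (39.5 RPKM), ferritin B (38.0 RPKM), transferrin (36.1 RPKM), superoxide dismutase 1 (28.8 RPKM) and ferritin A (26.7 RPKM) followed closely. The unnumbered superoxide dismutase had 9.24 RPKM, the secreted thioredoxin-like protein 6.69 RPKM and thioredoxin/protein disulfide isomerase 2.70 RPKM. The lowest were catalase with 1.03 RPKM, transferrin 3 with 0.892 RPKM and the thioredoxin binding protein with 0.785 RPKM.

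Of the 15 pairs of neighbours in this order 5 differed in an exact two-sided sign-flip permutation test over the 8 samples with Benjamini-Hochberg adjustment. The order that set the pairs came from the means of these same samples, so the test is no independent check of it. Metallothionein 2 lay above superoxide dismutase 2 by 1.49 ± 0.25 (SE) on the log2 scale, in 8 of 8 samples (exact p = 0.0078, the smallest this design allows, adjusted p = 0.023). The same p values held for peroxiredoxin 5 above the unnumbered metallothionein (1.18 ± 0.27), ferritin A above the unnumbered superoxide dismutase (1.72 ± 0.26), the secreted thioredoxin-like protein above thioredoxin/protein disulfide isomerase (1.19 ± 0.24), and the latter above catalase (1.41 ± 0.31), each in 8 of 8 samples. The other 10 pairs did not pass, among them the thioredoxin-like protein over metallothionein 2, with 0.49 ± 0.24 in 6 of 8 samples (exact p = 0.047, adjusted p = 0.10), and superoxide dismutase 2 over peroxiredoxin 5, with 0.38 ± 0.28 in 4 of 8 samples (exact p = 0.21, adjusted p = 0.35). With the most counted contig of each protein in place of the sum 3 pairs passed, 2 of them shared with the 5 (metallothionein 2 above superoxide dismutase 2, and ferritin A above the unnumbered superoxide dismutase). Peroxiredoxin 5 and the unnumbered metallothionein then did not pass, and the sign turned (-0.03 ± 0.45, exact p = 0.94), and the other called pairs kept their direction without passing. The top of the order turned as well. Metallothionein 2 had 1105 RPKM on M_dom_rep_c10784 and was above the thioredoxin-like protein in 7 of 8 samples (-0.65 ± 0.23 for the latter over the former, exact p = 0.047, adjusted p = 0.10), a difference that did not pass.

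Other genes of iron and redox metabolism were taken from a list of names. It found 16 contigs with an insect match, all 16 were tested, and 13 varied by more than counting error, where 95.1% of all contigs did. Their median dispersion was 0.214, and 5 of 16 lay above the median of all contigs. The most counted were the parts of glutamate-cysteine ligase, the enzyme that limits glutathione synthesis. Its catalytic subunit, annotated as gamma-glutamylcysteine synthetase, had 235, 101, 383, 152, 157, 161, 267 and 170 CPM in No.1 to No.8 over 3 contigs, and its regulatory subunit had 88.7 to 140.2 CPM. On the sample totals, the catalytic subunit thus had its highest value in No.3 and its lowest in No.2, as metallothionein 2 did. Whether both keep this order with other scalings was not tested.

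Glutathione peroxidase had 51.2 to 81.9 CPM over 2 contigs. The glutathione reductase family member of *M. domestica* had 40.3 to 95.9 CPM over 5 contigs, and in *Drosophila* thioredoxin reductase does the work of glutathione reductase. A glutaredoxin-related protein (M_dom_rep_c12614, 589 bp), chosen after its values were seen, had 10.5, 15.3, 0.671, 0.377, 0.769, 0.974, 11.4 and 10.8 CPM in No.1 to No.8. It was low in the samples No.3 to No.6, in which transferrin was high, and its dispersion was at percentile 94.8 of all contigs.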

How the data were processed

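A single table with 8 samples of whole adult houseflies of 791spin was used. The deposited table holds raw counts (whole numbers, not scaled) for each contig, its length and a BLASTX annotation made by the authors. The assembly was made with MIRA and Newbler, per the authors' methods. The counting program, and which reads went into it, was not given in the sources used here. The 8 columns of scaled counts were not used. Samples were matched to columns by title. Depth per sample was 10266664 to 16115208 counts, so 3 counts correspond to 0.186 to 0.292 CPM; intervals are 95% Wilson intervals and cover counting error only.

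CPM used the sample totals. Contigs whose mean count reached 5 were tested over the whole table with a chi-square test of homogeneity (Benjamini-Hochberg, 0.05), and edgeR 4.0.16 (TMM, intercept only) gave dispersions. Both were run on simulated data as a check of the code. For the chi-square test these were counts with counting error and planted changes. For edgeR they were counts with the same dispersion for every contig. Both settings are simpler than the real counts. DESeq2 1.42.0 served for alternatives (R 4.3.3). Python 3.11.15 ran the remaining steps, with scipy 1.17.1, numpy 2.4.6, pandas 2.3.3 and matplotlib 3.10.9. Where a sum was 0, 0.5 counts were added before logarithms.

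Members, lists and tests were chosen with earlier results of these data known. Named are protein matches with at least 50 counts, the contig with the highest mean in each family, and, of contigs whose mean count reached 50, the 5 with the largest and the 3 with the smallest ratio of highest to lowest sample; further contigs of these matches, and those described as chosen after their values were seen, were added. None of the accessions of the members matched the RefSeq gene table at hand (0 of 48), and contig sequences were not used here, so no sequence or coordinate is given.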

Additional observations from a re-analysis of the deposited data

Results flagged for a closer look

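In 1 of 27 sets of 8 values checked, a single sample lay far outside the rest. Chance flags about 1 in 20 such sets. The secreted thioredoxin-like protein had 16.4 CPM in No.2, where the next highest sample had 9.48 CPM. The labels give no difference between No.2 and the other samples.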

How the results depend on the processing

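The number of members varying beyond counting error, 41 of 41, was also 41 with TMM or DESeq2 size factors, 29 of 29 with a mean count of at least 50, 45 of 48 with no minimum, and 39 to 41 when any 1 sample was dropped. The number with a dispersion above the median of all contigs, 17 of 41, was 15 of 29 with a mean count of at least 50, where the share passed that of all contigs, 20 of 41 with DESeq2 dispersions, 17 of 41 with library totals only, and 16 of 41 to 20 of 42 with a sample left out. The share of all counts on members, 0.178%, was 0.22% once the totals excluded the 10 contigs with the most counts, since the totals then shrink. The 5 neighbouring pairs that differed in RPKM became 3 with the most counted contig of each protein, where fewer contigs enter and 6 of the 15 pairs changed direction, and 5 to 6 with a sample left out. The median ratio of ferritin B to A, 0.886, was 0.658 with the most counted contig of each. Mean CPM of the 16 named proteins moved by less than the spread between samples (SD) with TMM or DESeq2 size factors. Leaving out 1 of 8 samples cannot move a mean by that much, so that setting is no check. Scaling changes single samples more than the mean. TMM took the total of No.3 from 10436256 to 12617112 and that of No.5 from 10401013 to 8602947. The values of single samples were not given with these totals. With the most counted contig alone, 5 of 10 means fell by more than the SD. Without No.1 and No.2, which was chosen after the values were seen, the ratio of highest to lowest sample moved by over 1.5 times for 8 of 12 contigs. Heavy and light chains of ferritin were not compared, because no light chain is annotated. No paired analysis was possible because all 8 samples carry 1 and the same condition. Depth limits catalase, transferrin 3 and the thioredoxin binding protein most, with 466, 84 and 145 counts in all.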
